A study of Mus musculus with 43 samples.

Results

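The 6 genes described here handle metal ions in the cell: the metallothioneins Mt1 and Mt2, the zinc exporter Slc30a1, its family member Slc30a10, the zinc importer Slc39a4 and the zinc-sensing transcription factor Mtf1. They were chosen by symbol, with earlier results of these data known. They are 6 of the 23951 genes in the FPKM tables and of the 54307 gene rows in the single-cell matrices. All 6 symbols were found in both.

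The study followed mouse intestinal organoids (wild-type C57BL/6, primary cultures) given TGFB1, with and without irradiation, and crypt cells sorted from mice. For bulk RNA-seq there were 18 libraries, 3 per group. D7 Non-IR organoids were not irradiated and were collected at day 7; D7 IR and D11 IR organoids received 4 Gy on day 4 and were collected at day 7 or day 11. In each condition, 3 libraries had vehicle and 3 had 2 ng/mL TGFB1 for 24 h from day 6, so the D11 organoids were collected after the TGFB1 treatment had ended. Single-cell RNA-seq covered D8 organoids given 4 Gy on day 4 and then vehicle for 24 h (called 0 h) or 1 ng/mL TGFB1 for 6, 15 or 24 h, 1 library each. It also covered Ki67-RFP+ crypt cells of Mki67tm1.1Cle/J mice, which carry a red reporter at the locus of the proliferation gene Mki67: 1 library without irradiation (a littermate control) and 2 libraries from 56 h after 12 Gy to the whole body. Organoids of this kind hold epithelium without the stroma of the gut, and the sort keeps only reporter-positive cells. The labels do not say whether bulk replicates came from separate mice or cultures, so p-values measure the spread between these libraries, which may be technical.

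Metallothioneins are small, cysteine-rich proteins that bind zinc and copper and scavenge oxidants. When free zinc rises, Mtf1 binds metal response elements and switches on Mt1, Mt2 and Slc30a1, the exporter of zinc at the plasma membrane. Slc39a4 (ZIP4) takes up dietary zinc at the apical surface of the gut epithelium, and Slc30a10, despite its family name, is known chiefly as an exporter of manganese.

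Mt1 and Mt2 lie next to each other on mouse chromosome 8, and their promoters are shown because the pair carries most of the differences described below. The stretches are the 250 bases before the RefSeq start in the build GRCm38.p6, both on the plus strand: chr8:94178839-94179088 for Mt1 and chr8:94172368-94172617 for Mt2. The exporter Slc30a1, with the same known regulator, is given beside them from chr1:191906531-191906780, plus strand. Capitals mark the core of the metal response element, TGCACNC or TGCGCNC on either strand.
Mt1: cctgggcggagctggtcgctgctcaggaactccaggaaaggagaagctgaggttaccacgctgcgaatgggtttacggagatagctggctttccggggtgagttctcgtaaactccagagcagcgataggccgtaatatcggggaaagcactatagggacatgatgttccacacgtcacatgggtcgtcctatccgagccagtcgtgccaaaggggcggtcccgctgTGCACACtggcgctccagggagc
Mt2: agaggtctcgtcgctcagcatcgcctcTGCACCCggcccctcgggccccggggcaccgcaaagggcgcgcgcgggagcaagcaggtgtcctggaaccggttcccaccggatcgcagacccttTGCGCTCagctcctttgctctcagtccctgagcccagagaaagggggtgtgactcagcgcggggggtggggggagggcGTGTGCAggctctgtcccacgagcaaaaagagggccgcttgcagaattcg
Slc30a1: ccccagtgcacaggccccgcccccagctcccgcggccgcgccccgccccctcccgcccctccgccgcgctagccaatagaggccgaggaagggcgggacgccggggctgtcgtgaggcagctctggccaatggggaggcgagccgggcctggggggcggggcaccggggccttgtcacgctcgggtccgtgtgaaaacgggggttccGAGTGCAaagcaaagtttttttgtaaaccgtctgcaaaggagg

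RefSeq promoter entries were found for 5 of the 6 genes (Slc39a4 was not among them). Over the window from 250 bases before to 50 bases after the start, the core matched 3 times in Mt1, 4 times in Mt2, 2 times in Slc30a1 and 3 times in Slc30a10, and was not matched in Mtf1. In Mt1, 2 of the 3 matches, TGCACTC and TGCGCTC, lay just after the annotated start and so outside the printed stretch. A pair of the Slc30a10 matches overlap on opposite strands. Of all 32851 promoters of the same length, 25.7% held at least 1 match, 7.11% at least 2, 1.97% at least 3 and 0.517% at least 4. In the same window, the core of the antioxidant response element, TGACNNNGC on either strand, matched 1 time in Mt2 and 1 time in Slc30a1. It was not matched there in the other 3, and 12.4% of all promoters had at least 1 match. These are matches of letters, not measured binding sites, and bases outside the window around the annotated start were not searched.

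The libraries fit their labels as epithelium. Markers of enterocytes (12 genes) summed to between 1654 and 23064 FPKM in the 18 bulk libraries. Immune markers (8 genes) summed to at most 12.5 FPKM, mesenchymal markers (8 genes) to at most 9.97 and endothelial markers (4 genes) to at most 0.228, with Emcn at 0 in all 3 libraries of each group. Read depth is unknown for the bulk libraries, since only FPKM were used here. The 4 time-course libraries held 2932, 4283, 2890 and 2218 kept cells with 26302400 to 32430900 UMIs in all.

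Without TGFB1, Mt1 was the most abundant transcript by FPKM in the irradiated organoids at day 7, and Mt2 the third. Mt1 stood at 977, 1019 and 1085 FPKM in the 3 vehicle libraries of D7 Non-IR organoids, at 12611, 13393 and 13301 FPKM in D7 IR organoids, and at 2737, 4467 and 2498 FPKM in D11 IR organoids. The 3 groups did not overlap: Mt1 was lowest without irradiation, highest at day 7 after it and between the other two at day 11. Mt2 followed the same order, with 636 to 722 FPKM in D7 Non-IR, 5431 to 6035 in D7 IR and 1146 to 2330 in D11 IR libraries. The ratio of the group means, D7 IR over D7 Non-IR, was 12.8 for Mt1 and 8.42 for Mt2, and D11 IR over D7 Non-IR it was 3.15 and 2.45 (no overlap and at least 2-fold higher, as 5.75% of genes). Each condition is a table of its own that was scaled separately, so these levels carry no test. The series holds no non-irradiated organoids of day 11. In the D11 values, effects of irradiation and of more days in culture therefore cannot be told apart.

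Ranked by FPKM within its library, Mt1 was gene number 1 in all 6 D7 IR libraries and number 49 to 57 in the D7 Non-IR vehicle libraries. Together, Mt1 and Mt2 made up 3.27 to 3.45% of the summed FPKM of the D7 IR vehicle libraries, against 0.309 to 0.342% in D7 Non-IR and 0.687 to 1.28% in D11 IR. Both were at least 2-fold higher in D7 IR without overlap, as were 8.03% of the 11235 genes compared. The 12 enterocyte markers also stood higher, all 12 without overlap (median log2 ratio 1.98, against -0.03 over all genes), and their sum went from 3614 to 3790 FPKM to 15117 to 16045 FPKM. Other lists moved too, where 85.0% of all genes did not overlap. Without overlap, 7 of 10 Paneth cell (median -1.25), 7 of 10 regenerative (-0.68) and 7 of 10 mitotic markers (-0.39) were lower. In each of these lists 3 were higher. Of 10 S phase markers 7 were higher and 2 lower (0.37). The part of these lists in the result was not tested, and in bulk samples fewer cells of a type and less RNA per cell cannot be told apart.

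Slc39a4, Slc30a1 and Slc30a10 did not follow this order. Slc39a4, the importer, stood at 87.6 to 89.3 FPKM in D7 Non-IR vehicle libraries, at 33.4 to 35.6 in D7 IR and at 65.6 to 99.1 in D11 IR. Its D7 IR mean was 2.58-fold below that of D7 Non-IR, past the 2-fold mark with 7.44% of genes, while the D11 range overlapped the D7 Non-IR range. Slc30a1 differed little at day 7 (7.63 to 8.36 FPKM without and 8.24 to 8.96 with irradiation, overlapping) and was lower at D11 (4.56 to 4.62 FPKM). Slc30a10 stood at 22.2 to 22.9 FPKM in D7 Non-IR, 11.4 to 12.5 in D7 IR and 9.70 to 16.6 in D11 IR libraries, the last 2 overlapping. Mtf1, the regulator itself, was low throughout, with 3.45 to 3.68, 5.08 to 5.57 and 4.41 to 4.96 FPKM, the same order as Mt1 and Mt2 without overlap. Without regard to size, 5 of the 6 genes did not overlap between the D7 IR and D7 Non-IR vehicle libraries, as did 85.0% of all genes. From D7 IR to D11 IR, 5 of the 6 did not overlap either, against 66.9% of genes: Mt1 and Mt2 were 4.05-fold and 3.43-fold lower at D11 (3.28% of genes were at least 2-fold lower) and Slc39a4 2.37-fold higher (3.51% at least 2-fold higher). Between D11 IR and D7 Non-IR, 5 of 6 did not overlap, against 76.0% of genes, and 5.59% of genes were at least 2-fold lower, none of the 6 among them.

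Mt1 and Mt2 kept their order of conditions among the TGFB1 libraries, whereas Mtf1 and Slc30a10 did not keep theirs: Mtf1 means were 3.68 FPKM without irradiation, 5.71 at day 7 after it and 5.84 at D11, and Slc30a10 means 16.1, 9.90 and 1.79 FPKM. Mt1 and Mt2 were 24.6-fold and 20.7-fold higher in D7 IR than in D7 Non-IR organoids with TGFB1 (9.73% of genes were at least 2-fold higher without overlap), Slc39a4 was 3.26-fold lower (8.92% of genes), and all 6 genes did not overlap, against 84.1%. From D7 IR to D11 IR with TGFB1, Mt1, Mt2, Slc30a1 and Slc30a10 were 4.75-fold, 4.07-fold, 2.11-fold and 5.52-fold lower (8.52% of genes), and Slc39a4 was 2.13-fold higher (6.32%). There 5 of 6 genes did not overlap, against 77.4%.

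**Figure D1:**
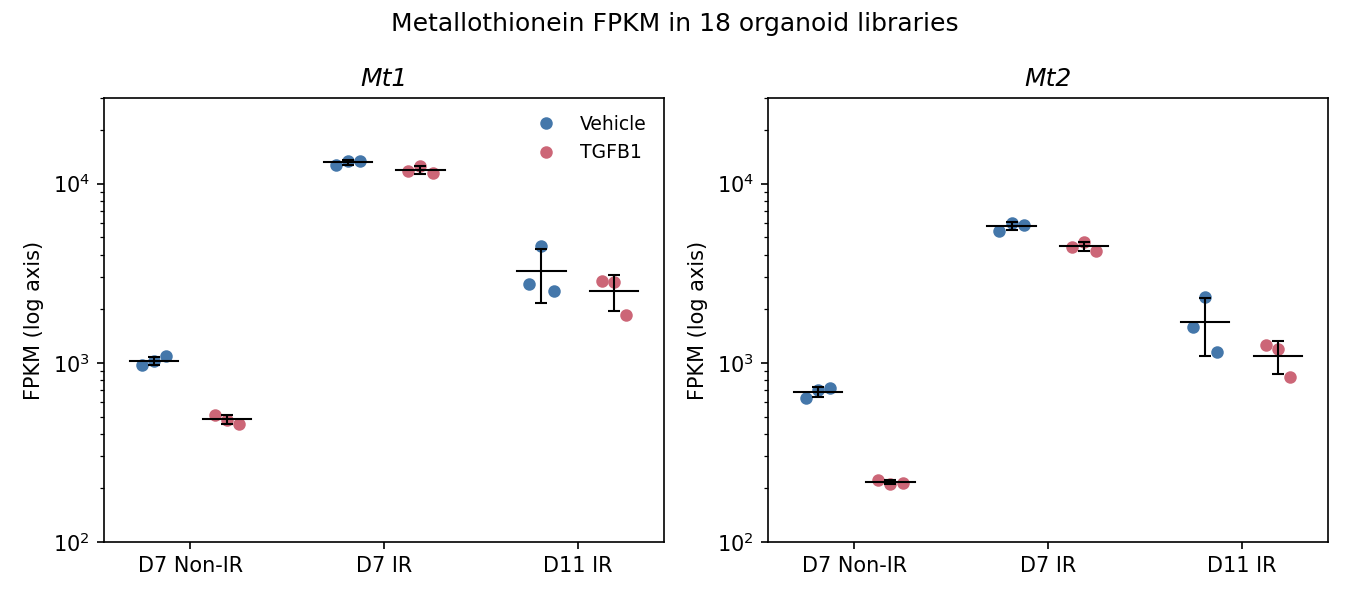
Mt1 (left) and Mt2 (right) in FPKM on a log axis for the 18 bulk libraries, by condition; points are libraries, blue vehicle and red TGFB1, with the mean and SD of 3 libraries in black. D7 IR libraries lie between 11428 and 13393 FPKM for Mt1, and the D7 Non-IR libraries with TGFB1 lie lowest for both genes.

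In non-irradiated organoids, 24 h of TGFB1 went with lower levels of both metallothioneins and both SLC30 exporters and a higher level of the importer. Mt1 was 508, 482 and 457 FPKM with TGFB1, so its mean fell from 1027 ± 54.2 (SD, n = 3) to 483 ± 25.5 FPKM. The log2 change was -1.09 (SE 0.05) and the adjusted p was 8.03e-09 (limma on log2(FPKM + 1), Benjamini-Hochberg adjustment over all genes tested, as in every bulk test below). Mt2 was 221, 210 and 214 FPKM with TGFB1 and fell further, from 687 ± 45.1 to 215 ± 5.19 FPKM (log2 change -1.67, SE 0.05, limma adjusted p = 2.60e-10). The vehicle and TGFB1 libraries did not overlap for either gene.

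Slc30a1 fell from 8.09 ± 0.398 to 5.90 ± 0.380 FPKM (log2 change -0.40, limma adjusted p = 1.59e-04). Slc30a10 fell from 22.7 ± 0.414 to 16.1 ± 0.624 FPKM (log2 change -0.47, limma adjusted p = 2.64e-06). Slc39a4 rose from 88.2 ± 0.981 to 132 ± 6.49 FPKM, with all 3 TGFB1 libraries (124, 135 and 135) above the vehicle libraries (log2 change 0.57, limma adjusted p = 2.53e-07). Mtf1 was 3.53 ± 0.124 and 3.68 ± 0.211 FPKM and did not pass (limma adjusted p = 0.552). So 5 of the 6 genes passed, 4 lower and 1 higher, in a comparison in which 68.2% of the 11330 genes tested passed (34.9% lower and 33.3% higher). A change of at least 2-fold together with the test was rarer, at 8.44% of genes, and Mt1 and Mt2 were the members that met it. Of the 12 enterocyte markers, 10 fell and 2 rose, and their sum went from 3614 to 3790 FPKM to 1654 to 1807 FPKM. The 11 regenerative markers went from a sum of 570 to 608 FPKM to one of 3270 to 3408 FPKM. All 10 mitotic markers fell, from a sum of 698 to 711 FPKM to one of 336 to 348 FPKM. Of the 9 goblet markers 8 fell. Of the 9 stem cell markers 4 fell and 2 rose, from a sum of 973 to 1062 FPKM to one of 636 to 665 FPKM. Their part in the result was not tested.

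In irradiated organoids collected at the same day, both metallothioneins also fell with TGFB1, by less on the log2 scale but by more in FPKM. Mt1 was 11700, 12558 and 11428 FPKM with TGFB1, each below the 3 vehicle libraries, and its mean fell from 13102 ± 427 to 11895 ± 589 FPKM (log2 change -0.14, SE 0.05, limma adjusted p = 0.0167). The call was lost without vehicle replicate 2, vehicle replicate 3 or TGFB1 replicate 1 (limma adjusted p = 0.0761, 0.0596 and 0.0575). Mt2 was 4412, 4744 and 4198 FPKM with TGFB1 and fell from 5785 ± 315 to 4452 ± 275 FPKM (log2 change -0.38, SE 0.05, limma adjusted p = 9.41e-05). Slc30a10 fell from 11.9 ± 0.526 to 9.90 ± 1.12 FPKM (limma adjusted p = 0.0120), and Slc39a4 rose from 34.2 ± 1.21 to 40.4 ± 1.61 FPKM (limma adjusted p = 7.99e-04). Slc30a1 (8.59 ± 0.361 and 9.22 ± 0.115 FPKM, limma adjusted p = 0.142) and Mtf1 (5.27 ± 0.270 and 5.71 ± 0.203 FPKM, limma adjusted p = 0.167) did not pass. The 4 calls, 3 lower and 1 higher, compare with 75.5% of the 11258 genes tested (39.7% lower and 35.8% higher). Of the 12 enterocyte markers, 6 rose and 3 fell, and their sum went from 15117 to 16045 FPKM to 22135 to 23064 FPKM. The regenerative markers went from a sum of 358 to 384 FPKM to one of 4836 to 5281 FPKM, the 11 enteroendocrine markers from 780 to 871 FPKM to 2111 to 2356 FPKM, the 10 mitotic markers from 764 to 775 FPKM to 172 to 214 FPKM, and the 9 stem cell markers from 1042 to 1074 FPKM to 420 to 511 FPKM. Their part in the result was not tested.

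**Figure D2:**
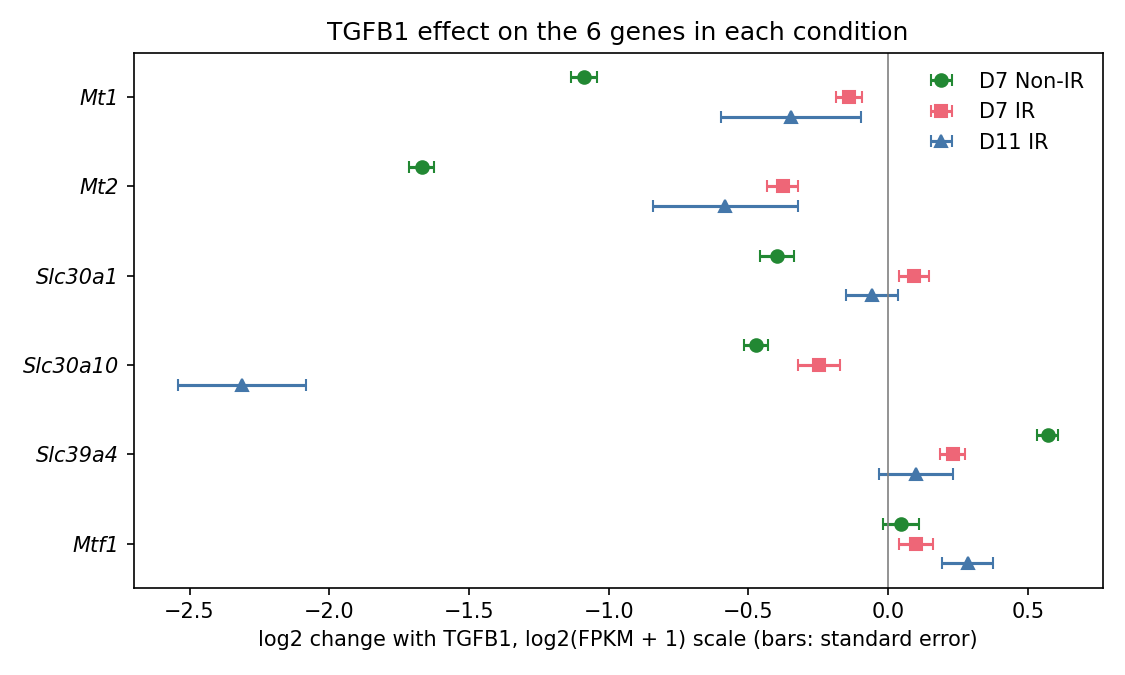
The log2 change with TGFB1 of each gene on the log2(FPKM + 1) scale (horizontal axis) with its standard error, for each of the 3 conditions. Among the D7 Non-IR values Mt1 and Mt2 lie furthest left, and Slc30a10 at -2.31 in D11 IR organoids lies furthest left of all.

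The difference between the 2 responses at day 7 was itself tested, as the change in D7 IR minus the change in D7 Non-IR organoids. It was 0.95 (SE 0.07) for Mt1, 1.29 (SE 0.08) for Mt2 and 0.49 (SE 0.08) for Slc30a1, with limma adjusted p of 6.51e-08, 1.04e-08 and 9.94e-05. For these 3 genes the fall with TGFB1 was thus smaller on the log2 scale in irradiated organoids, or, for Slc30a1, no longer a fall. Slc39a4 rose less in irradiated organoids (-0.34, SE 0.06, limma adjusted p = 2.51e-04). Slc30a10 was 0.22 (SE 0.09) with a limma adjusted p of 0.05002, at the threshold, and Mtf1 was 0.05 (SE 0.08, limma adjusted p = 0.601). The 4 calls, 3 higher and 1 lower, compare with 53.1% of the 11411 genes tested (25.3% higher and 27.8% lower), and a difference of at least 2-fold that passed, met by Mt2 among these genes, was found for 4.38%. The 12 enterocyte markers differed in the same direction as the metallothioneins, 12 of 12 (median 1.42, against -0.01 over all genes). Of the other lists, 10 of 11 enteroendocrine and 9 of 10 Paneth cell markers also passed higher. Lower were 10 of 10 mitotic and 10 of 10 S phase markers. The part of these lists in the result was not tested.

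The balance between the paralogs shifted too. The ratio of Mt1 to Mt2 FPKM was 1.45 to 1.54 in D7 Non-IR vehicle libraries and 2.14 to 2.30 with TGFB1, and 2.22 to 2.32 in D7 IR vehicle libraries and 2.65 to 2.72 with TGFB1. The 2 genes are similar in sequence, and the sources used here do not say how reads were shared between them, so their single values are uncertain to that extent.

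At D11, after the TGFB1 treatment had ended, the manganese exporter stood apart. Slc30a10 was 9.70, 12.2 and 16.6 FPKM in vehicle libraries and 1.56, 2.65 and 1.17 FPKM in those treated with TGFB1. Every treated library lay far below every vehicle library, and the mean fell 7.16-fold, from 12.8 ± 3.49 to 1.79 ± 0.769 FPKM (log2 change -2.31, SE 0.23, limma adjusted p = 5.21e-05). Leaving out each library in turn gave log2 changes of -2.52 to -2.13. The change at D11 minus that in D7 IR organoids was -2.07 (SE 0.27, limma adjusted p = 3.55e-05).

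The metallothioneins did not pass at D11, where their libraries spread more. Mt1 was 2851, 2811 and 1854 FPKM with TGFB1, against 3234 ± 1074 FPKM with vehicle, and the groups overlapped (log2 change -0.35, SE 0.25, limma adjusted p = 0.250). The Mt1 change was -0.089 without vehicle replicate 2 and -0.14 without TGFB1 replicate 3, and -0.51 at the other end of the values with 1 library left out. Mt2 was 1685 ± 599 and 1094 ± 224 FPKM (log2 change -0.58, SE 0.26, limma adjusted p = 0.0764), and without vehicle replicate 3 it passed (-0.83, limma adjusted p = 0.0130), while without vehicle replicate 2 it was -0.32. Mtf1 rose from 4.62 ± 0.296 to 5.84 ± 0.309 FPKM (log2 change 0.28, limma adjusted p = 0.0208); this call was lost without vehicle replicate 2 (limma adjusted p = 0.0688), TGFB1 replicate 1 (0.0777) or TGFB1 replicate 2 (0.0745). Slc30a1 (4.58 ± 0.0313 and 4.37 ± 0.386 FPKM) and Slc39a4 (81.1 ± 16.9 and 85.9 ± 4.98 FPKM) did not pass, with limma adjusted p of 0.601 and 0.531.

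So 2 of the 6 genes passed at D11, 1 in each direction, against 63.9% of the 11479 genes tested (32.3% higher and 31.6% lower); 13.7% of genes passed with at least 2-fold, Slc30a10 among them. In the test of D11 against D7, Slc30a10 was the member that passed, against 64.5% of 11456 genes (33.0% lower and 31.5% higher); Slc39a4 (-0.13, limma adjusted p = 0.470) passed too without vehicle replicate 1 of D11 (-0.27, limma adjusted p = 0.0473). Beside it, 6 of the 12 enterocyte markers fell and 2 rose at D11 (median log2 change -0.57), and 8 of 11 enteroendocrine markers fell. The enterocyte sum was 3601 to 6411 FPKM with vehicle and 2339 to 2751 FPKM with TGFB1. The regenerative markers summed to 311 to 371 and 4703 to 5595 FPKM, and the 8 immune markers to 0.811 to 1.61 and 10.2 to 12.5 FPKM; their part in the result was not tested.

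**Figure D3:**
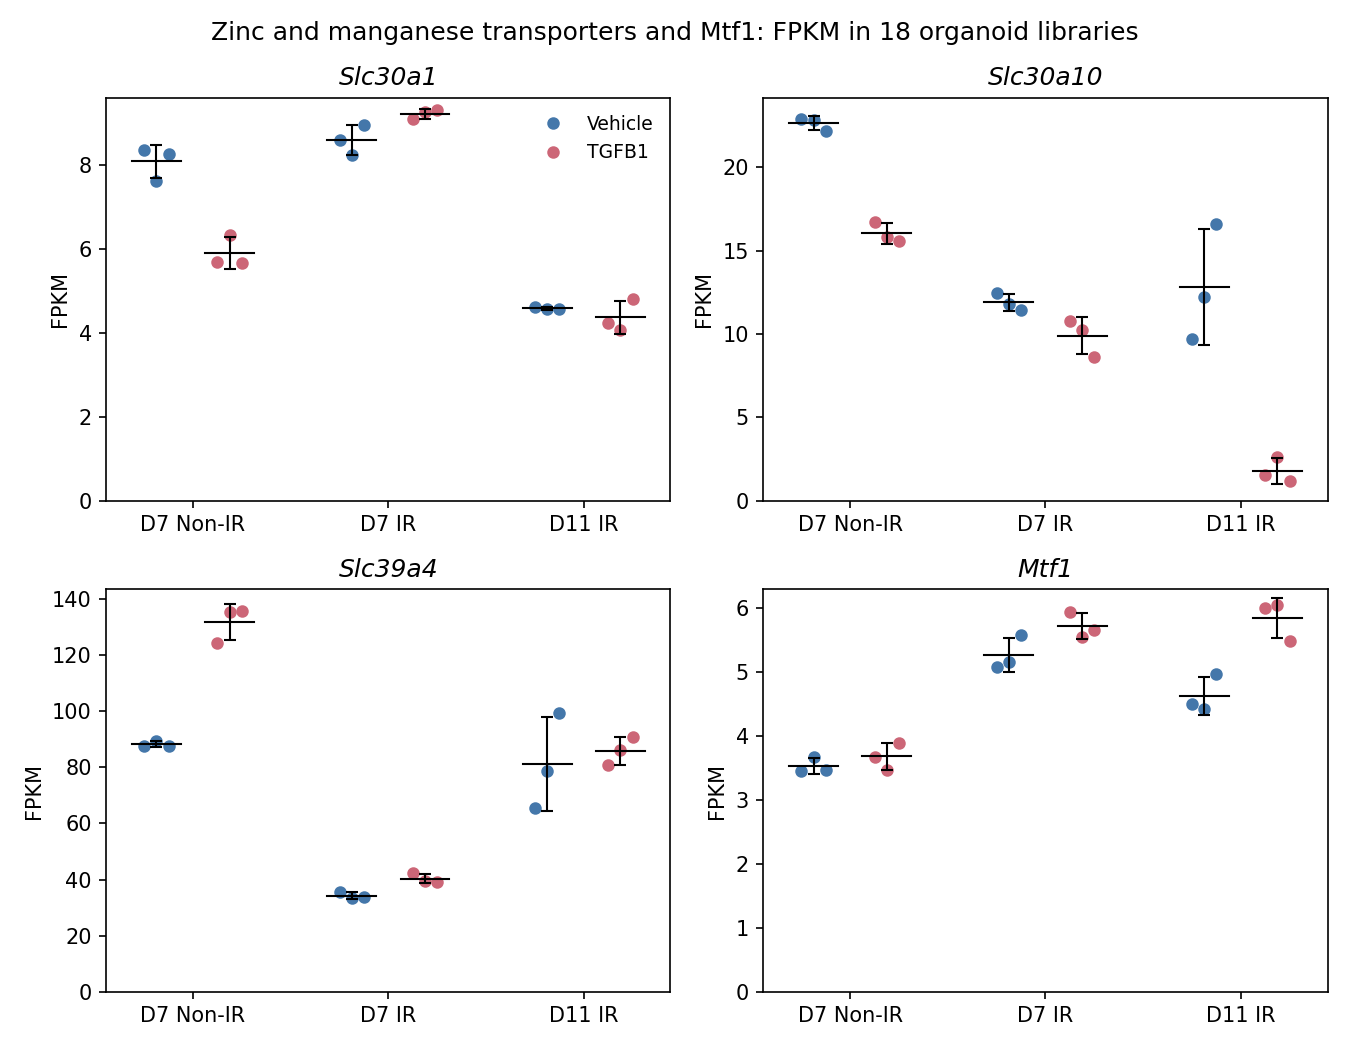
Slc30a1, Slc30a10, Slc39a4 and Mtf1 in FPKM (linear axes from 0) for the 18 bulk libraries, by condition; points are libraries, blue vehicle and red TGFB1, with the mean and SD of 3 libraries in black. The 3 TGFB1 libraries of Slc30a10 at D11 lie between 1.17 and 2.65 FPKM, under all others in that panel.

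Genes whose levels ran most closely with each member were sought over the 18 libraries, after centring log2(FPKM + 1) within each table and keeping genes of at least 10 FPKM on average. This is a description over libraries that share their tables. The difference between vehicle and TGFB1 libraries was left in, so these correlations also carry the TGFB1 responses given above. For Mt1 they were Mt2 (Pearson r = 0.976), Tmco4 (0.912) and Dnlz (0.911), and for Mt2 they were Mt1, Dnlz (0.926) and Rnase4 (0.919). Slc30a10 ran with H2-Q10 (0.993), Etfa (0.983) and Acaa2 (0.983), the last 2 of which act in mitochondrial fatty acid oxidation. Slc30a1 ran with Mme (0.897), Pllp (0.890) and Klf4 (0.883), Slc39a4 with Csk (0.951), Map2k1 (0.939) and Slc7a7 (0.938), and Mtf1 with Atp6v0c (0.934), Prr14 (0.910) and Cpne1 (0.899). Among the members, Slc39a4 ran opposite to Mt1 (r = -0.79) and Mt2 (r = -0.88).

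The 23 other zinc genes, transporters of the SLC30 and SLC39 families and the metallothioneins Mt3 and Mt4, moved in both directions. With TGFB1, 5 rose and 7 fell of the 19 tested in D7 Non-IR organoids, 6 rose and 5 fell of 19 in D7 IR, and 7 rose and 4 fell of 20 in D11 IR, in comparisons in which 68.2%, 75.5% and 63.9% of all genes passed in either direction. Their medians were -0.07, 0.02 and 0.05 log2 units, against -0.02, -0.03 and 0.01 over all genes. At least 2-fold lower were Slc39a8 (ZIP8, a carrier of zinc and manganese), from 24.8 ± 0.355 to 9.86 ± 0.849 FPKM in D7 Non-IR and from 11.2 ± 0.807 to 4.10 ± 0.137 FPKM in D7 IR (limma adjusted p = 9.55e-09 and 3.08e-08). Slc39a5 (ZIP5, a basolateral zinc importer) fell from 62.1 ± 1.60 to 26.3 ± 0.953 FPKM in D7 Non-IR and from 69.9 ± 6.36 to 25.4 ± 1.11 FPKM in D11 IR (limma adjusted p = 7.73e-10 and 6.04e-07).

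Slc39a14 (ZIP14, also a manganese importer) fell from 41.3 ± 2.00 to 17.1 ± 2.29 FPKM in D11 IR organoids (limma adjusted p = 3.43e-06). Mt4, the metallothionein of stratified epithelia, rose there from 1.11 ± 0.538 to 4.11 ± 0.347 FPKM (limma adjusted p = 8.76e-05) and was the zinc gene whose response differed by at least 2-fold between D7 IR and D7 Non-IR organoids (1.15, limma adjusted p = 1.11e-04). Its mean was 10.4 FPKM with vehicle and 21.5 FPKM with TGFB1 in D7 IR, and 0.376 and 0.217 FPKM in D7 Non-IR organoids. The D7 Non-IR means lie below the 1 FPKM added before taking logs, so a fall there could only be small on that scale. In that difference 6 zinc genes passed higher and 2 lower of 19, against 53.1% of all genes in either direction, and in the difference between D11 and D7 5 passed in each direction of 19, against 64.5%.

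Copper and oxidative stress genes, which share ligands or inducers with metallothioneins, were followed as well. Of 8 copper genes tested, 3 rose and 4 fell in D7 Non-IR, 4 rose and 3 fell in D7 IR, and 2 rose and 5 fell in D11 IR organoids (68.2%, 75.5% and 63.9% of all genes passed). The copper chaperone Ccs fell at D11 from 67.6 to 25.7 FPKM on average (limma adjusted p = 6.17e-06). Of 13 oxidative stress genes, 4 rose and 5 fell in each day 7 comparison. At D11 9 rose and 0 fell by limma (Gsr was the 1 lower gene under 0.05 without adjustment, with a limma adjusted p of 0.0686), where 32.3% of all genes rose and 31.6% fell (median log2 change 0.52, against 0.01 over all genes). Hmox1 (heme oxygenase) rose in D7 Non-IR from 23.8 to 77.2 FPKM, in D7 IR from 8.80 to 32.8 and in D11 IR from 7.96 to 25.1, while Gsr (glutathione reductase) fell in both day 7 comparisons, from 255 to 124 and from 127 to 53.5 FPKM. Gclc, which limits glutathione synthesis, and G6pdx, which supplies NADPH, rose at D11 from 38.3 to 108 and from 67.4 to 176 FPKM. In the test of the D11 response against the D7 IR response, 11 of the 13 oxidative stress genes passed higher, as did 31.5% of all genes (median 0.70, against -0.01 over all genes), led by G6pdx (1.56), Gclc (1.25) and Slc7a11 (1.07), the cystine importer, and 4 of 8 copper genes passed lower, as did 33.0% of all genes, with Ccs at -1.25.

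In single cells of irradiated D8 organoids, both metallothioneins were lower at every TGFB1 time than at 0 h. Mt1 took 13286 CPM (UMIs of the gene scaled to a fixed library total; a UMI is a tag that marks 1 captured RNA molecule) at 0 h, 5684 at 6 h, 5906 at 15 h and 8130 at 24 h. Its 95% exact Poisson interval, which covers counting error only, was 13243 to 13330 CPM at 0 h and 5658 to 5710 CPM at 6 h, far from each other. Mt2 took 8543, 3931, 3957 and 4584 CPM. With 1 library per time there is no test, and a difference between libraries cannot be told apart from one between times.

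At 6 h Mt1 was 2.34-fold and Mt2 2.17-fold lower than at 0 h, where 24 of 8400 genes of at least 10 CPM, 0.286%, were more than 2-fold lower (0.929% were more than 2-fold higher). At 15 h the folds were 2.25 and 2.16, against 0.830% of 8431 genes, and at 24 h 1.63 and 1.86, under the 2-fold mark that 1.37% of 8536 genes passed. When each cell was thinned to 2000 UMIs, the median cell held 25, 7, 9 and 13.5 Mt1 UMIs at 0, 6, 15 and 24 h, and 16, 5, 6 and 7 Mt2 UMIs; 1 cell at 0 h and 5 at 6 h were too shallow and were left out. Some cells held a fractional count, where a UMI was split between genes. The full counts of such cells made up at most 0.120% of the UMIs for Mt1. For Mt2 they made up 2.19, 0.688, 2.202 and 8.37% at the 4 times. The split part alone was not computed. The enterocyte markers summed to 24313, 25614, 26335 and 22057 CPM, while the shares of cell clusters changed as given below.

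The other 4 genes moved less in this time course. Slc30a1 was 70.8, 61.0, 68.2 and 69.9 CPM, Slc30a10 30.4, 27.6, 31.7 and 28.9 CPM, Slc39a4 15.7, 19.8, 20.4 and 17.3 CPM, and Mtf1 22.9, 24.5, 23.3 and 24.2 CPM. None of the 4 was past 2-fold in either direction at any time; 2.03% and 4.14% of genes were more than 2-fold higher at 15 and 24 h.

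The metallothioneins were also followed within clusters of cells, which were built without the 6 genes. Clusters were called after marker lists where the markers allowed it, and clusters of at least 20 cells at both times were compared. Mt1 was lower at 6 h than at 0 h in 14 of 14 such clusters, by 1.74-fold to 4.11-fold, and Mt2 in 14 of 14, by 1.53-fold to 4.53-fold. At 15 h both were lower in 13 of 13, and at 24 h Mt1 was lower in 7 of 8 and Mt2 in 8 of 8. The exception was the unnamed cluster 2, with 24 cells at 0 h, where Mt1 went from 10288 to 11771 CPM. All clusters of a time come from the same library, so the clusters are not replicates and a library difference would enter each of them. The share of all genes that were lower in every cluster was not computed.

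Enterocyte-like cells (cluster 1) held the most Mt1 of the named clusters at 0 h, 21500 CPM in 230 cells, and stood at 11960, 10822 and 16649 CPM at 6, 15 and 24 h. The unnamed cluster 0 held more at 0 h, 23056 CPM in 836 cells. Its enterocyte markers had a median fold of 1.97, just under the limit of 2 for a name. The unnamed clusters 14 and 15 held 18845 and 21436 CPM in 30 and 40 cells at 0 h. Their enterocyte markers had median folds of 2.51 and 2.93, but none was among the leading genes, as a name required. Unnamed clusters made up 50.9% of the cells at 0 h. The second enterocyte-like cluster, cluster 7, had under 20 cells at 0 h and stood at 11589, 12033 and 14896 CPM at the later times. Mitotic-like cells held 5278, 1285, 1211 and 1592 CPM at the 4 times in cluster 3 and 11735, 2873, 3703 and 4160 CPM in cluster 6. S phase-like cells (cluster 5) went from 5087 to 1627 CPM at 6 h. Stem-like cells (cluster 4) went from 4365 CPM in the 27 cells present at 0 h to 1114, 1342 and 1750 CPM. Regenerative-like cells (cluster 10) reached 20 cells only from 6 h on, with 1081, 1758 and 3221 CPM. The shares of these clusters changed over time, the stem-like cluster from 0.921 to 18.8% and the S phase-like cluster from 20.7 to 0.586% of cells between 0 and 24 h.

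**Figure D4:**
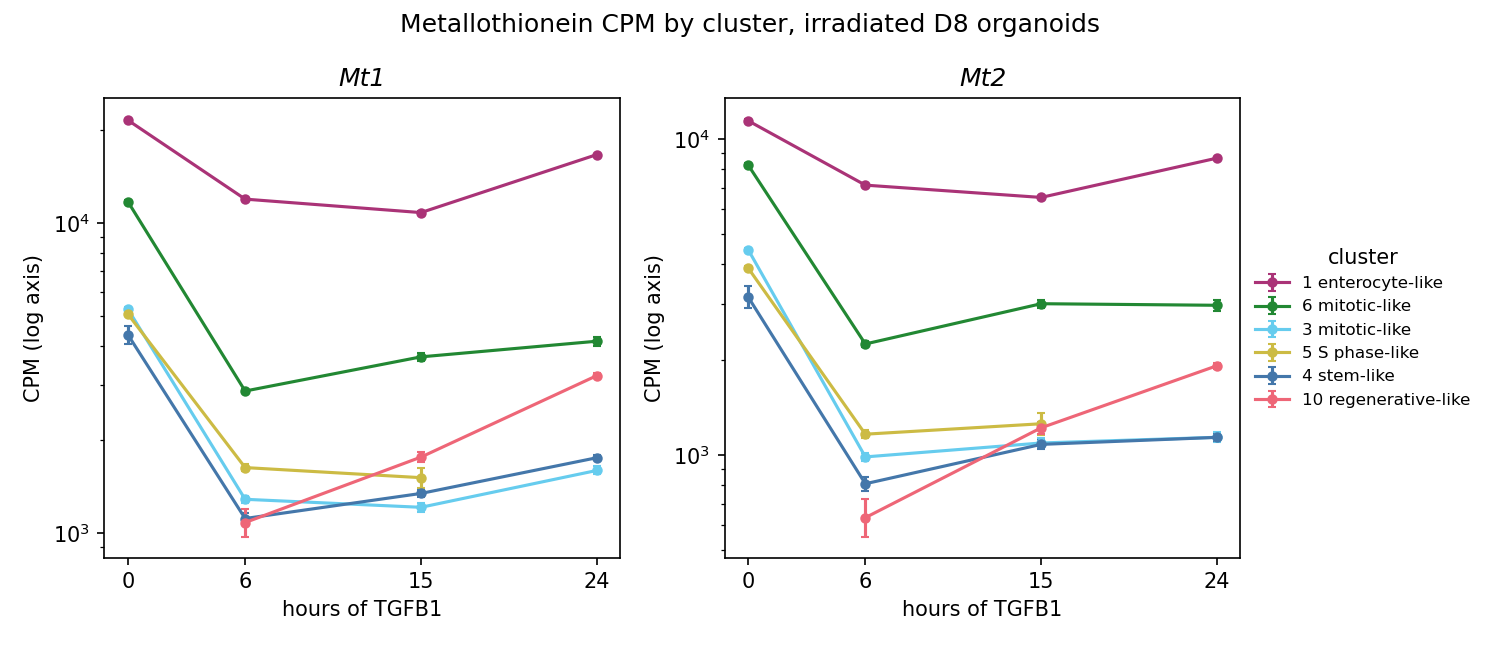
Mt1 (left) and Mt2 (right) in CPM on a log axis against hours of TGFB1 for 6 named clusters of irradiated D8 organoids, 1 library per time; bars are 95% Poisson intervals. Each cluster present at 0 h is lower at 6 h, and cluster 1 lies above the other 5; the second enterocyte-like cluster, number 7, had too few cells at 0 h and is not drawn.

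The transporters differed in level between the classes of organoid cells. Slc30a10 was 103, 77.9, 70.5 and 65.0 CPM in enterocyte-like cells at 0, 6, 15 and 24 h, and at most 6.41 CPM in mitotic-like, S phase-like, stem-like and regenerative-like cells, each pooled over the clusters of its name. The cells of unnamed clusters, pooled, lay between, at 46.4, 39.0, 31.5 and 34.6 CPM. Within the mitotic-like class, cluster 6 stood higher, at 13.2, 8.89, 10.7 and 6.06 CPM. Most enterocyte-like cells were of cluster 1 at 0 h and of cluster 7 (281 of 522 cells) at 24 h; within cluster 1 the Slc30a10 values were 104, 75.4, 80.1 and 72.7 CPM. Slc39a4 was distributed the other way, with 70.9, 47.6 and 32.2 CPM in regenerative-like cells at 6, 15 and 24 h against 13.2, 10.4 and 7.98 CPM in enterocyte-like cells. In the sorted crypt cells this order did not hold: Slc39a4 was 180 CPM in 34 enterocyte-like and 79.5 CPM in 347 regenerative-like cells of the second irradiated library, and 77.6 CPM in enterocyte-like and 29.6 CPM in stem-like cells of the non-irradiated one. In the organoids, Slc30a1 was higher in enterocyte-like cells (105 to 125 CPM) than in the other 4 named classes (10.2 to 44.0 CPM). Cells of unnamed clusters held 99.4, 80.3, 81.2 and 82.1 CPM of it at the 4 times. Mtf1 lay between 10.2 and 32.6 CPM in all of them.

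The bulk and single-cell treatments differ in dose and day, so their values stand side by side without a comparison. After 24 h, Mt1 was 1.10-fold lower with 2 ng/mL at day 7 in bulk and 1.63-fold lower with 1 ng/mL at day 8 in single cells.

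In the Ki67-RFP+ crypt cells, irradiation of the mouse went with higher metallothioneins. Kept cells numbered 1846 without irradiation and 719 and 699 after it, with 25767600, 13733700 and 12344800 UMIs in all, and Mki67 was 180, 158 and 138 CPM. Mt1 was 519 CPM in the non-irradiated library and 1176 and 1363 CPM in the 2 irradiated ones, a 2.45-fold higher mean (log2 change 1.11, SE 0.15, edgeR quasi-likelihood adjusted p = 7.18e-05). Mt2 was 104, 484 and 532 CPM, a 4.87-fold higher mean (log2 change 2.11, SE 0.16, edgeR adjusted p = 4.17e-07). Against the non-irradiated library, each irradiated library had both genes past 2-fold higher, as 9.43% and 9.86% of genes of at least 10 CPM; 6.29% and 4.98% were past 2-fold lower. With 1 non-irradiated library, the spread is estimated from the 2 irradiated libraries and assumed for the lone one; the irradiated and non-irradiated cells also passed through strainers of different mesh.

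The remaining members did not pass: Slc30a1 (19.99, 17.6 and 15.7 CPM, edgeR adjusted p = 0.0815), Slc39a4 (48.5, 50.2 and 62.0 CPM, 0.897) and Mtf1 (19.7, 19.9 and 20.2 CPM, 0.534). Slc30a10 was close to the limit of detection, 0.699, 0.437 and 3.16 CPM (edgeR adjusted p = 0.646), and 34 of its 39.4 UMIs in the second irradiated library were in 34 enterocyte-like cells. Thus 2 of 6 genes passed, both higher, against 33.4% of 16398 genes, of which 16.9% were higher and 16.5% lower. Nearly every cluster of these cells was of 1 condition, so the difference could be followed within 1 cluster. That cluster, unnamed because goblet and immune markers both led it, had cells of all 3 libraries, and its Mt1 was 266, 680 and 843 CPM in 72, 44 and 22 cells.

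Marker lists stood beside these values as follows. Regenerative markers summed to 30.7 CPM without irradiation and to 674 and 963 CPM after it (9 of 10 tested higher), and immune markers to 6.17, 18.9 and 11.7 CPM (2 of 8 higher, each of the 8 with UMIs in every library). Paneth cell markers summed to 2715, 787 and 976 CPM (5 of 10 lower and 1 higher). Enterocyte markers summed to 4549, 926 and 2735 CPM (median log2 change -1.38); 0 of the 12 passed with edgeR, while 1 was under 0.05 without adjustment and 1 was lower with DESeq2. Their part in the result was not tested.

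**Figure D5:**
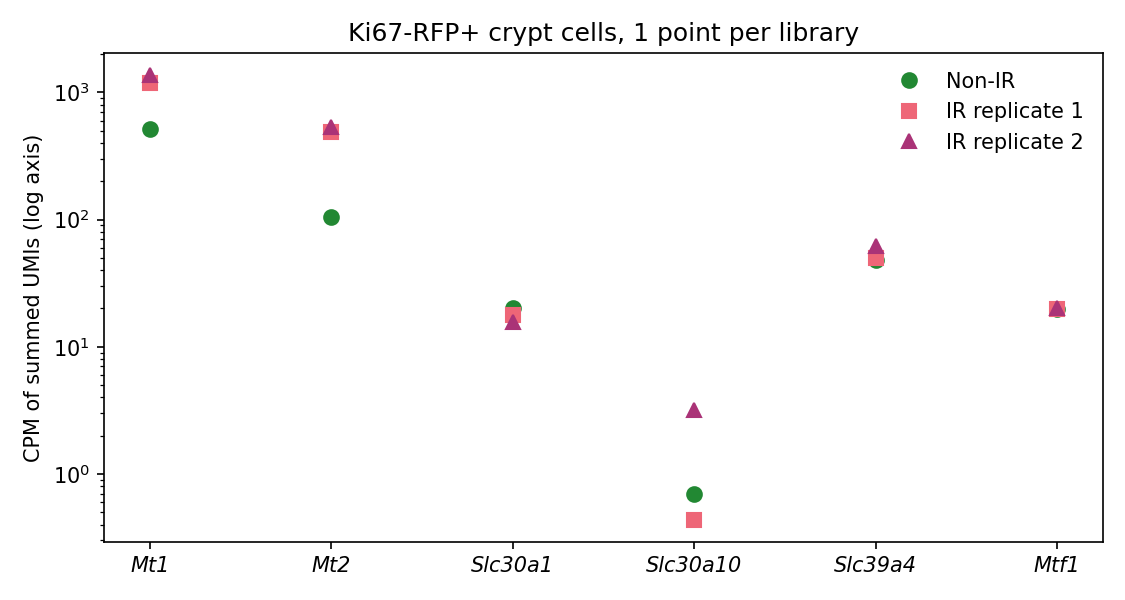
The 6 genes in CPM of summed UMIs on a log axis, 1 point for each of the 3 libraries of Ki67-RFP+ crypt cells. Mt1 and Mt2 of both irradiated libraries lie above the non-irradiated library, while the points of Slc30a1, Slc39a4 and Mtf1 nearly coincide.

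Of the other zinc genes in these cells, 5 were higher and 5 lower of 20 tested with edgeR, where 16.9% of all genes were higher and 16.5% lower; with DESeq2 3 were higher and 2 lower of 19. Slc39a10 (ZIP10, a plasma membrane zinc importer) rose from 11.1 to 57.4 and 43.6 CPM (log2 change 2.02, edgeR adjusted p = 3.45e-05), and Slc39a6 (ZIP6), its close relative, from 1.86 to 6.99 and 6.97 CPM (1.73, edgeR adjusted p = 9.66e-04). Slc39a5 fell from 108 to 13.9 and 18.5 CPM (-2.92, edgeR adjusted p = 5.84e-08). Mt3 rose from 0.155 to 0.947 and 1.13 CPM (edgeR adjusted p = 0.0321), and Mt4 from 1 UMI in the non-irradiated library to 60 in the 2 irradiated ones, a ratio of 59.3 with a 95% counting interval of 10.2 to 2380. Of 8 copper genes, 3 were lower (16.5% of all genes), Atp7b (13.0 to 4.37 and 5.27 CPM) and Ccs (55.9 to 20.1 and 27.8 CPM) by at least 2-fold. Of 13 oxidative stress genes, 7 were higher (16.9% of all genes), with Hmox1 at 0.194, 3.35 and 5.18 CPM and Slc7a11 at 1.05, 5.02 and 6.97 CPM, and 2 were lower (16.5%). In organoids without TGFB1, 2 of these 13 stood higher and 10 lower without overlap in D7 IR than in D7 Non-IR libraries. The median log2 ratio was -0.41, against -0.03 over all genes, of which 85.0% did not overlap. There Slc39a10 (2.08 against 7.70 FPKM) and Slc39a6 (2.84 against 3.23) were lower. Slc39a5 (155 against 62.1 FPKM) and Mt4 (10.4 against 0.376) were higher. These organoid levels carry no test.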

How the data were processed

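Bulk expression is given as FPKM, deposited by the authors in 1 table per condition with 6 libraries each; every column was matched to a sample by its title. For single cells, each matrix as deposited by the authors holds an expected count of UMIs per gene and cell, with fractions where a UMI was split between genes. The submitters' processing notes name TopHat2 2.1.0, Cuffnorm 2.2.1, Cuffdiff 2.2.1, STAR 2.7.10a, STARsolo and Salmon 1.4, and the builds mm9, GRCm39 and mm39, without their roles.

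Log2(FPKM + 1) was tested with limma 3.58.1 (trend, robust; two-sided) for genes whose mean reached 1 FPKM, and an adjusted p under 0.05 was called. Tables were scaled separately, so levels across tables carry no test. A factor common to a table cancels in the tests of a difference between responses, except at levels low against the added 1 FPKM. Cells needed 500 UMIs, 250 genes and no more than 20% mitochondrial UMIs; any 2 libraries shared 0 or 1 barcodes. Doublets were not removed and no caller was run. Ki67-RFP sums per library were rounded and tested with edgeR 4.0.16 (quasi-likelihood, TMM, filterByExpr), with DESeq2 1.42.0 as an alternative. Clustering left out the 6 genes (scanpy 1.11.5, 2000 variable genes, 30 components, 15 neighbours; leidenalg 0.10.2 at resolution 0.6). Each cluster was named after the list whose markers had the greatest median fold in it, if at least 2. At least 1 marker of that list also had to be among the leading genes of the cluster, and more than of any other list. The limit of 2, and leaving a cluster unnamed where a second list reached 5, were set after the data were seen. The scripts were tested on simulated data.

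The members and lists were chosen with earlier results of these data known. Named beside the members are zinc genes that passed with at least 2-fold (up to 8 per comparison), copper and oxidative stress genes by the same rule (up to 3 each), and the 3 genes most like each member. Promoters are RefSeq entries of GRCm38.p6. ATAC-seq peaks were not used here, since their build could not be settled.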

Additional observations from a re-analysis of the deposited data

Results flagged for a closer look

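The response to TGFB1 differed between irradiated and non-irradiated organoids at day 7, by the test of the difference itself, for 4 of the 6 genes. On the log2 scale, irradiated minus non-irradiated, it was 0.95 for Mt1 (limma adjusted p = 6.51e-08, n = 3 libraries per group), 1.29 for Mt2 (limma adjusted p = 1.04e-08), 0.49 for Slc30a1 (limma adjusted p = 9.94e-05) and -0.34 for Slc39a4 (limma adjusted p = 2.51e-04). The response of Slc30a10 differed between day 11 and day 7 of irradiated organoids by -2.07 (limma adjusted p = 3.55e-05).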

How the results depend on the processing

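Alternatives changed the pseudocount, the filter, the scaling or the tool, or left out a library. Of 432 such values for the 6 genes, 402 kept direction and side of the threshold. Directions turned for values that had not passed: Mt2 in the day 11 against day 7 difference with quantile normalization (0.41, limma adjusted p = 0.318), and Slc39a4 in Ki67-RFP cells without a filter (-0.032). Leaving out each library in turn gave -0.042 to 0.25 for Slc39a4 at D11. In the day difference it gave -0.37 to 0.051 for Mt1, -0.45 to 0.059 for Mt2 and -0.27 to 0.022 for Slc39a4, which passed at -0.27, without vehicle replicate 1 of D11 (limma adjusted p = 0.0473), and in Ki67-RFP cells -0.75 to 1.77 for Slc30a10 and -0.17 to 0.099 for Slc39a4, the last 2 as values of 1 library against 1 with no test. The turns came without vehicle replicates 1, 2 or 3 of D11 or the second irradiated library; the cause was not tested. With quantile normalization the Mt1 call in D7 IR was lost (limma adjusted p = 1), by construction, since Mt1 ranks first in all 6 libraries. Slc30a10 in the irradiation difference passed with median-ratio scaling (0.0398) and quantile normalization (0.0113).

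DESeq2 called 3032 genes in Ki67-RFP cells where edgeR called 5481. The log2 ratios to 0 h in single cells were -1.22, -1.17 and -0.71 for Mt1 and -1.12, -1.11 and -0.90 for Mt2 at 6, 15 and 24 h. With at least 2000 UMIs and at most 10% mitochondrial UMIs they were -1.24, -1.19 and -0.72 for Mt1 and -1.13 for Mt2 at 6 h. As means over cells they were -1.19 at 6 h and -0.77 at 24 h for Mt1, and -1.07, -1.17 and -0.99 for Mt2; each moved beyond counting error and kept its direction.

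Same-numbered libraries did not deviate together (correlations of deviations from -0.09 to 0.21), so the replicate block is only a shared number. With the replicate block, 7701, 8417 and 7351 genes were called for the TGFB1 effect in the 3 conditions (non-irradiated, irradiated, D11), 5964 in the irradiation difference and 7396 in the day difference, against 7732, 8495, 7335, 6061 and 7387 without it. Mt2 at D11 (limma adjusted p = 0.0143) and Slc30a10 in the irradiation difference (0.0216) passed with the block, and no other call of the 6 genes changed. The planned comparison of promoter peaks and its alternatives were not run. Bulk read depth is unknown, and 1 library per time, or 1 non-irradiated library, limits the single-cell comparisons.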
